A study of Mus musculus with 9 samples.

Results

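Ribosomal protein genes encode the proteins of the cytosolic ribosome. Their expression was followed in mouse embryonic stem (ES) cells after knockdown of Wdr5 and after knockdown of Oct4. A gene was included when its symbol in the deposited table of either comparison started with Rpl or Rps and a digit, or was Rplp0, Rplp1, Rplp2 or Rpsa, with the Rps6k kinases left out. This gave 84 symbols among the 33221 of both tables, 50 for the large subunit and 34 for the small one, of which 41 were on both platforms. The platform of the Wdr5 comparison carried 63 of them (35 large and 28 small) on 81 probes, and that of the Oct4 comparison carried 62 (39 large and 23 small) on 92 probes. Testing required at least 1 probe whose detection score passed 0.95 on 2 or more arrays, and the brightest such probe then stood for the gene. The tested genes were 57 in the Wdr5 comparison (30 large and 27 small) and 51 in the Oct4 comparison (32 large and 19 small). Rps19bp1 met the rule by its symbol, although it encodes a binding partner of Rps19 and not a ribosomal protein.

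The study hybridized total RNA to 9 Illumina beadchip arrays of 1 colour. The Wdr5 knockdown was 3 arrays of 1 rescue clone labelled Wdr5R4 without doxycycline, made in Aniv15 ES cells, which express the tetracycline transactivator rtTA, and carrying an shRNA against Wdr5, a shared subunit of histone H3 lysine 4 methyltransferase complexes. The luciferase control was 2 arrays labelled LucR with doxycycline, from the same Aniv15 line. The Oct4 shRNA group was 2 arrays of ES cells in which an shRNA targets Oct4, a pluripotency transcription factor encoded by Pou5f1, and the GFP shRNA group was 2 arrays with an shRNA against GFP. For both of these groups the labels name CCE or E14T cells without saying which was used. Every culture was kept with LIF on a feeder layer of primary mouse fibroblasts, and the growth text lists doxycycline for every sample, which for the knockdown clone goes against its own label. Doxycycline and the clone therefore cannot be told apart from the Wdr5 knockdown. Nothing in the labels says that replicates came from separate cultures, so the tests measure the spread between these arrays, which may be technical.

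In the cell, each cytosolic ribosome is built from ribosomal RNA and 1 copy of nearly every ribosomal protein, the stalk proteins being the known exception. The genes lie scattered over the chromosomes, yet their messenger RNAs are among the most abundant in growing cells and are made in similar amounts. In mammals these messenger RNAs typically begin with a run of pyrimidines (the 5′ TOP sequence), through which mTOR signalling sets their translation, and ES cells are known for active ribosome biogenesis.

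Stretches around the transcription start are shown for the 3 genes of each subunit with the lowest log2 fold change in the Wdr5 knockdown and for the 3 genes that rose in it, so that the shared start can be compared. Each runs from 80 bases before to 30 after the RefSeq start (assembly GRCm38.p6), 5′ to 3′ in the direction of transcription. Capitals mark runs of at least 8 pyrimidines between 20 bases before and 30 after the start, and the letters CCGGAAG (the core of many ETS family sites) or AAGATGGC (which holds the YY1 core) on either strand. The windows lie at chr4:86857338-86857447, minus strand (Rps6), chr12:28635924-28636033, minus strand (Rps7), chrX:102189362-102189471, minus strand (Rps4x), chr2:26910727-26910836, plus strand (Rpl7a), chr3:28805428-28805537, plus strand (Rpl22l1), chr16:55966195-55966304, plus strand (Rpl24), chr11:114668500-114668609, plus strand (Rpl38), chr10:128549139-128549248, minus strand (Rpl41) and chr7:118116118-118116227, minus strand (Rps15a).
Rps6: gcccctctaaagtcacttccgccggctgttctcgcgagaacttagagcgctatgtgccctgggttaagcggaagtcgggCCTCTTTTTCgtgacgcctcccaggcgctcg
Rps7: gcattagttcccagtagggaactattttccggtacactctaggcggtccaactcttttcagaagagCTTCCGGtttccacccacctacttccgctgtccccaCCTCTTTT
Rps4x: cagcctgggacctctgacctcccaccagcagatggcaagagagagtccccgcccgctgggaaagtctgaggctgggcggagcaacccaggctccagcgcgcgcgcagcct
Rpl7a: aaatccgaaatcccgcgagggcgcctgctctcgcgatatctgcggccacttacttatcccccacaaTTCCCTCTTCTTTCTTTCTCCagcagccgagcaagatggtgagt
Rpl22l1: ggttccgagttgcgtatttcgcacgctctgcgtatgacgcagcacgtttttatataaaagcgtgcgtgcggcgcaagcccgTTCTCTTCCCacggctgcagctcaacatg
Rpl24: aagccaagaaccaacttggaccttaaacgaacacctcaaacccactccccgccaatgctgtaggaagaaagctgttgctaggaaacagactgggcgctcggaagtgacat
Rpl38: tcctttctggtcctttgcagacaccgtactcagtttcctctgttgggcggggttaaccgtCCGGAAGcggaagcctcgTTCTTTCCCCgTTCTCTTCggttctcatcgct
Rpl41: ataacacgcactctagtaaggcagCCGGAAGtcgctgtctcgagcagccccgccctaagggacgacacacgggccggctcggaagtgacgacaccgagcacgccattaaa
Rps15a: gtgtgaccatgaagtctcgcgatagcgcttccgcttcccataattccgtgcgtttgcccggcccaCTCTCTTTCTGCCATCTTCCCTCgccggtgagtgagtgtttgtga

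Among the 84 names, 63 had a RefSeq promoter. Of these, 33 (52.4%) held a run of at least 8 pyrimidines around the start, against 21.5% of all 27025 genes with a promoter in the table. Runs of at least 8 purines in the same window were found in 5 of the 63 (7.94%), against 24.7% of all genes. The letters CCGGAAG stood on either strand within 250 bases before and 50 after the start in 25 of the 63 (39.7%), against 9.93% of all genes, and AAGATGGC in 6 (9.52%), against 3.19%. In the Wdr5 comparison the pyrimidine run was present in 16 of 32 genes with a promoter that fell, in 2 of 3 that rose and in 5 of 11 that did not pass the test. Of the sequences shown, Rps6, Rps7, Rpl7a and Rpl22l1, which fell, have such a run, and so do Rps15a and, called higher on its brightest probe, Rpl38, while Rps4x and Rpl24 (fell) and Rpl41 (rose) do not. In Rps15a the letters AAGATGGC, on the opposite strand, overlap a pyrimidine run. Shorter runs and starts other than the RefSeq one were not counted. A gene without a marked run may thus still have a 5′ TOP sequence.

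Each knockdown was checked on its target first. Wdr5 had signals of 464, 459 and 427 on the Wdr5 knockdown arrays, against 988 and 1097 on the luciferase arrays, a log2 fold change of -0.96 ± 0.07 (SE, limma, adjusted p = 0.000121). Pou5f1 had signals of 297 and 305 on the Oct4 shRNA arrays, against 4609 and 4136.5 on the GFP shRNA arrays, a log2 fold change of -2.28 ± 0.15 (SE, limma, adjusted p = 0.000684). Each target also fell in the other comparison. Wdr5 had a log2 fold change of -0.81 ± 0.15 after Oct4 knockdown (SE, limma, adjusted p = 0.0108). Pou5f1 had -0.96 ± 0.18 in the Wdr5 knockdown (SE, limma, adjusted p = 0.00448). Signals are the deposited intensities, background-subtracted and not normalized between arrays. Mean signals over all probes were 375 to 429 on the Wdr5 knockdown arrays, against 448 and 518 on the luciferase arrays. They were 110 and 111 on the Oct4 shRNA arrays, against 344 and 278 on the GFP shRNA arrays. Fold changes are differences of quantile-normalized log2 values, and so stand relative to the other genes on the arrays. Genes were called higher or lower at an adjusted p under 0.05 over all genes tested.

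Most ribosomal protein genes fell in the Wdr5 knockdown. Of the 57 tested, 38 fell and 3 rose, and 16 did not pass the test. Over all 10119 genes tested, 68.7% were called, 30.5% lower and 38.2% higher, so the share called in either direction (71.9%) was near the background. The share that fell was 66.7%. The median log2 fold change was -0.64 over the large subunit genes (22 fell, 2 rose, 6 did not pass) and -0.52 over the small subunit genes (16 fell, 1 rose, 10 did not pass), with 0.10 over all genes. A fall of at least 2-fold was seen in 17 of the 57 (29.8%), 6 large and 11 small, against 9.63% of all genes. Normalized values of the 2 groups did not overlap for 47 genes (82.5%), against 79.1% of all genes, and 40 of these 47 were lower in the knockdown. The direction of non-overlap was not counted over all genes. Member probes made up 6.01 to 6.18% of the summed signal on the knockdown arrays, against 9.01 and 8.71% on the luciferase arrays. Of the 100 brightest probes of an array, 21 or 22 were ribosomal protein probes in the knockdown, against 34 and 33 in the control.

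**Figure D1:**
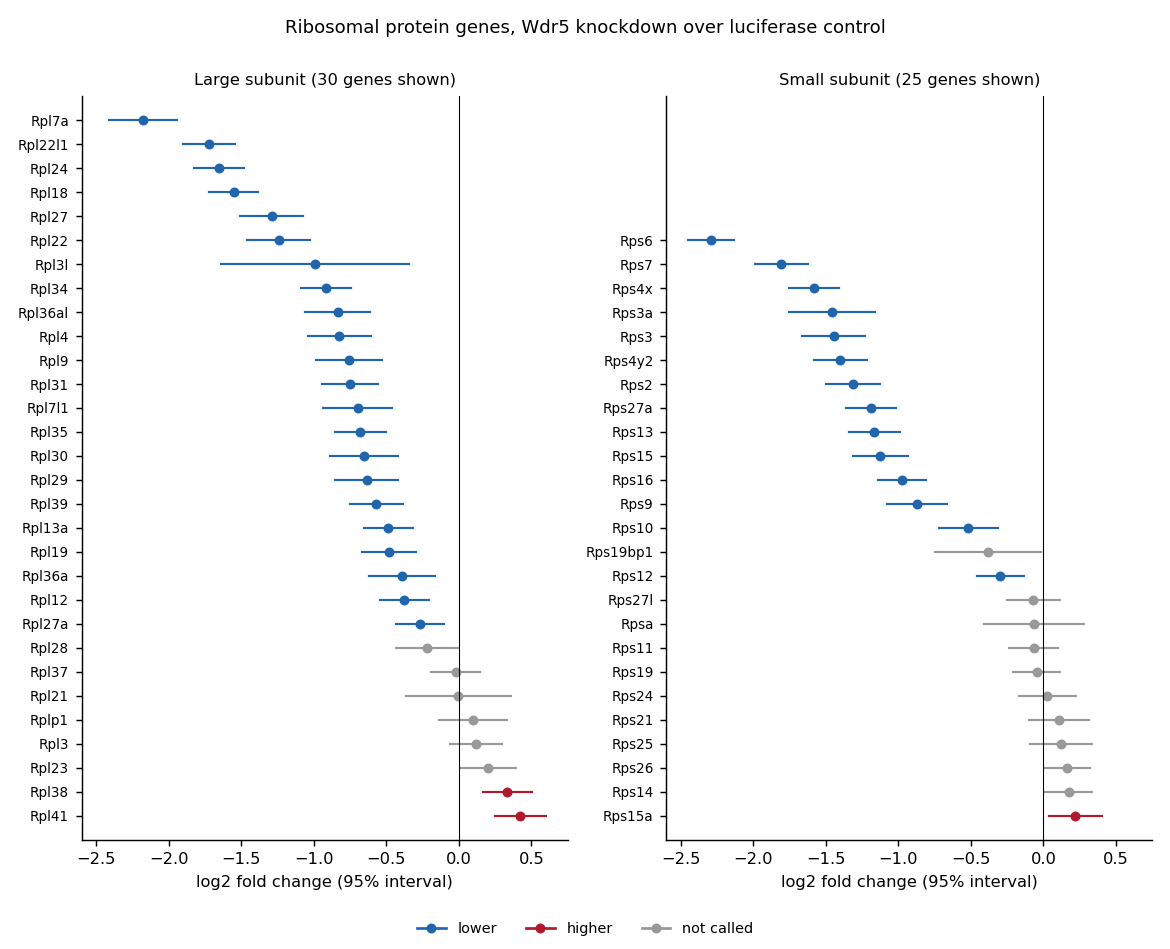
Log2 fold change (x axis, Wdr5 knockdown over luciferase control) of 55 tested ribosomal protein genes (y axis), with points for estimates and lines for 95% intervals from limma, large subunit on the left and small subunit on the right. Blue genes passed the test as lower (22 large and 14 small of those shown), red genes as higher (Rpl38, Rpl41 and Rps15a), and grey genes did not pass.

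In the small subunit, Rps6, the ribosomal protein phosphorylated by the S6 kinases, fell most. Its signals were 3446, 3194 and 3009 on the Wdr5 knockdown arrays, against 18629 and 20315 on the luciferase arrays, and its log2 fold change was -2.29 ± 0.06 (SE, limma, adjusted p = 1.42e-05), or 4.88-fold lower. Rps7 had signals of 6091, 5499.7 and 4961 in the knockdown and 23071 and 27766 in the control, a log2 fold change of -1.81 ± 0.07 (SE, limma, adjusted p = 2.03e-05). Rps4x, the X-linked copy of Rps4, had signals of 10164, 9493 and 9441 in the knockdown and 34238 and 38101 in the control, a log2 fold change of -1.58 ± 0.07 (SE, limma, adjusted p = 2.3e-05). All 3 were several-fold lower on each knockdown array than on either control array, and the arrays of a group lay close together. Rps3a, Rps3, Rps4y2, Rps2, Rps27a, Rps13 and Rps15 also fell by at least 2-fold, with log2 fold changes between -1.45 and -1.12. Rps27a, which is made as a fusion with ubiquitin, had signals of 1703, 1438 and 1378 in the knockdown, against 3574 and 4190.5 in the control, a log2 fold change of -1.19 ± 0.07 (SE, limma, adjusted p = 5.26e-05). The probe named Rps4y2 carries the RefSeq accession of Rps4l, a near-identical relative of Rps4x, so signal shared between the copies cannot be told apart.

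At the other end of the small subunit, Rps15a was the 1 gene that rose, with signals of 376, 379.5 and 348 in the knockdown, against 361 and 413 in the control. Its log2 fold change was 0.22 ± 0.08 (SE, limma, adjusted p = 0.0402), and this call was lost under 6 of the alternative settings tried. Rps14, deleted in the human 5q- syndrome, had normalized log2 values of 14.62, 14.57 and 14.58 in the knockdown and 14.43 and 14.40 in the control, and Rps26 had 14.65, 14.67 and 14.65 in the knockdown and 14.50 and 14.48 in the control. The groups did not overlap for either gene, and neither Rps14 (0.17, adjusted p = 0.0554 by limma) nor Rps26 (0.17, adjusted p = 0.0591 by limma) passed. Rps19, mutated in the human disorder Diamond-Blackfan anaemia, had signals of 22551, 20597 and 19065 in the knockdown, against 28554 and 32073 in the control, and its log2 fold change was -0.05 ± 0.07 (SE, limma, adjusted p = 0.56), with an interval of -0.21 to 0.12. Rps25, which in mammalian cells serves initiation at some viral internal ribosome entry sites, had signals of 5761, 5229 and 4926 in the knockdown, against 4742 and 6443 in the control. Its log2 fold change of 0.12 had an interval of -0.09 to 0.34, and its normalized values overlapped between the groups. The intervals cover only the spread between these arrays, on the probe used for each gene. Within that limit, those of Rps19 and Rps25 exclude a fall as large as the median of the small subunit. Rpsa, known also as the laminin receptor, was dim here, with signals of 20.9, 28 and 21.4 in the knockdown and 39.5 and 34.2 in the control, and its log2 fold change of -0.07 had an interval of -0.41 to 0.28.

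In the large subunit, Rpl7a fell most, with signals of 558, 557 and 451 in the Wdr5 knockdown, against 2702 and 2849 in the luciferase control. Its log2 fold change was -2.18 ± 0.09 (SE, limma, adjusted p = 2.13e-05), or 4.53-fold lower. Rpl22l1, the paralog of Rpl22, had signals of 42.8, 43.3 and 40.1 in the knockdown and 214 and 260.4 in the control, a log2 fold change of -1.72 ± 0.07 (SE, limma, adjusted p = 2.06e-05). Rpl24, mutated in the Belly spot and tail mouse, had signals of 3055, 2946.5 and 2835 in the knockdown and 10404 and 11925 in the control, a log2 fold change of -1.65 ± 0.07 (SE, limma, adjusted p = 2.06e-05). None of these 3 overlapped between the groups. Rpl18 (-1.55), Rpl27 (-1.29) and Rpl22 (-1.24) also fell by at least 2-fold, and another 16 large subunit genes fell by less, between -0.99 (Rpl3l) and -0.27 (Rpl27a). Rpl41, which encodes one of the smallest known proteins, rose, with signals of 34409, 33658.5 and 34359 in the knockdown, against 30791 and 34349 in the control, and a log2 fold change of 0.42 ± 0.07 (SE, limma, adjusted p = 0.00257). These signals overlapped before normalization and separated after it. The highest signals of any probe on the 3 knockdown arrays were 35558, 35860 and 34359, the last being Rpl41 itself. The part of this in its rise was not tested. Rplp1, a protein of the stalk that recruits elongation factors, had signals of 34730, 32113 and 30381 in the knockdown and 32823 and 39327 in the control, and its log2 fold change of 0.10 had an interval of -0.14 to 0.33. Rpl23 had normalized log2 values of 14.95, 15.12 and 15.01 in the knockdown and 14.83 and 14.83 in the control. Its dimmer kept probes gave 0.14, which did not pass, and -0.58, which fell (limma, adjusted p = 0.000744 over probes). Neither Rpl23 (0.20, adjusted p = 0.0642 by limma) nor Rpl3 (0.12, adjusted p = 0.191 by limma) passed.

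Paralog pairs could be set side by side in part. Rpl22 and Rpl22l1 both fell, with log2 fold changes of -1.24 and -1.72. Rpl36a and its retrocopy Rpl36al both fell, with log2 fold changes of -0.39 and -0.84. Rpl3 did not pass, while Rpl3l, its paralog of striated muscle, fell with a log2 fold change of -0.99 ± 0.26 (SE, limma, adjusted p = 0.0165). Rpl3l was near background, with signals of -1.7, -1.5 and 17.9 in the knockdown, where it was detected on 1 of 3 arrays, and 52.9 and 43.1 in the control. Rpl39 had signals of 11841, 10981 and 10701 in the knockdown, against 22741.5 and 22587 in the control, and fell with a log2 fold change of -0.57. Its paralog Rpl39l, Rpl14, Rpl17, Rpl6, Rplp2 and Rps23 were on the platform and detected on too few arrays to be tested. Rps27l had signals of 17378, 16993 and 17115 in the knockdown, against 25577 and 28409 in the control, and did not pass (-0.07, adjusted p = 0.45 by limma).

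**Figure D2:**
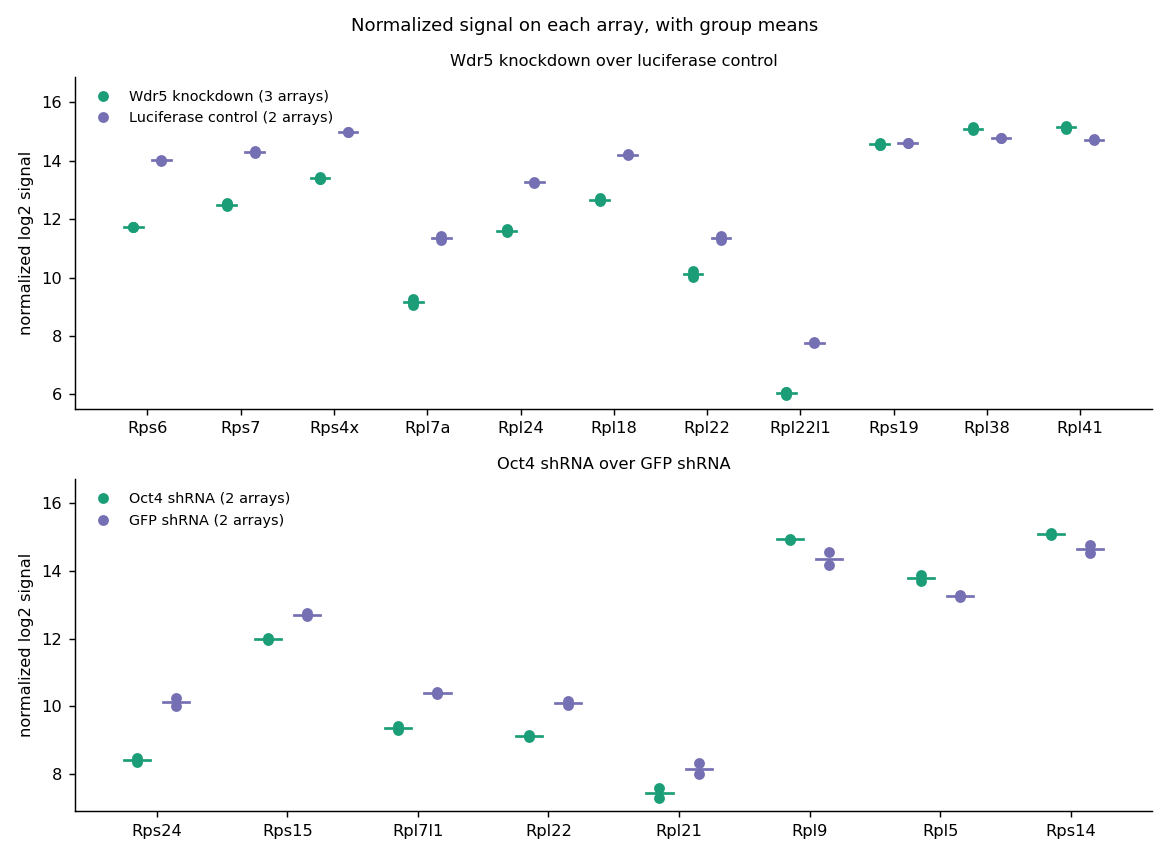
Normalized log2 signal (y axis) of selected ribosomal protein genes (x axis) on each array, with group means as bars: Wdr5 knockdown beside luciferase control above, Oct4 shRNA beside GFP shRNA below. Rps6, Rps7, Rps4x, Rpl7a, Rpl24, Rpl18, Rpl22 and Rpl22l1 sit lower on all 3 Wdr5 knockdown arrays, Rpl38 and Rpl41 sit slightly higher, and Rps19 overlaps.

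The calls were also counted by the brightness of the probe. Of the 33 tested genes with a mean signal of at least 10000, 19 fell and 2 rose, with a median log2 fold change of -0.38. All 148 genes on the arrays of that brightness, these 33 among them, had a median of 0.02, with 48 lower (32.4%) and 52 higher (35.1%). Of the 17 ribosomal protein genes between 1000 and 10000, 16 fell and none rose, and their median was -0.82, against 33.2% lower, 41.2% higher and a median of 0.07 over all 2055 genes of that range. The exception was Rps25. Of the 7 under 1000, 3 fell and 1 rose, with a median of -0.38, against 29.8% lower and 37.4% higher over all 7916 genes of that range. At the top, 9 genes had a mean signal of at least 25000, of which 2 fell and 2 rose, with a median of 0.03. All 25 genes of that brightness, these 9 among them, had a median of 0.04, with 5 lower (20%) and 5 higher (20%). The shares were near this background, which holds in part the same genes. The highest signal on any array of this set was 42063.9, on a luciferase array. On the knockdown arrays the highest signals were 34358.7 to 35860.2.

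Probes of 1 gene often differed. Of 12 genes with several kept probes, the dimmest gave a lower log2 fold change than the brightest in 7 and a higher one in 5. In the 6 genes whose dimmest probe had a mean signal of at least 500, a limit chosen after the values were seen, it was lower in 6, with medians of -1.31 for the dimmest probes and -0.36 for the brightest. In the 6 whose dimmest probe was under 500 it was higher in 5, namely Rpl4, Rpl7l1, Rpl21, Rpl27a and Rps19, and lower in Rpl29. Rpl38, which in mice is needed for the translation of a subset of Hox messenger RNAs, and Rpl7l1, the paralog of Rpl7, were called in opposite directions. The brightest probe of Rpl38 had signals of 33489, 35057 and 31863.5 in the Wdr5 knockdown, against 32246.5 and 34362 in the luciferase control, and a log2 fold change of 0.33 ± 0.07 (SE, limma, adjusted p = 0.00617). Its other probe had signals of 1208, 1153 and 1044 in the knockdown, against 4009.7 and 4765 in the control, and a log2 fold change of -1.74 ± 0.07 (SE, limma, adjusted p = 2.2e-05 over probes). The rise of Rpl38 thus rests on the choice of probe, and the mean of both probes gave -0.71. Rps3 had log2 fold changes of -1.45 on the brighter probe and -2.79 on the dimmer one. Rps24 had 0.03 on the brighter probe, which did not pass, and -0.52 on the dimmer one, which fell (limma, adjusted p = 0.0106 over probes). For Rpl7l1 the brighter probe had signals of 1015, 887 and 891.5 in the knockdown, against 1454 and 2014 in the control, and a log2 fold change of -0.70 (limma, adjusted p = 0.00128 over probes). Its dimmer probe had signals of only 83.7, 90.1 and 73.4 in the knockdown and 74.2 and 105 in the control and a log2 fold change of 0.37 (limma, adjusted p = 0.0243 over probes). The part of probe brightness in these values was not tested. Another 13 probes of this platform and 127 of the Oct4 platform were annotated as similar to a ribosomal protein, and signal from near-identical copies of a gene cannot be told apart.

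**Figure D3:**
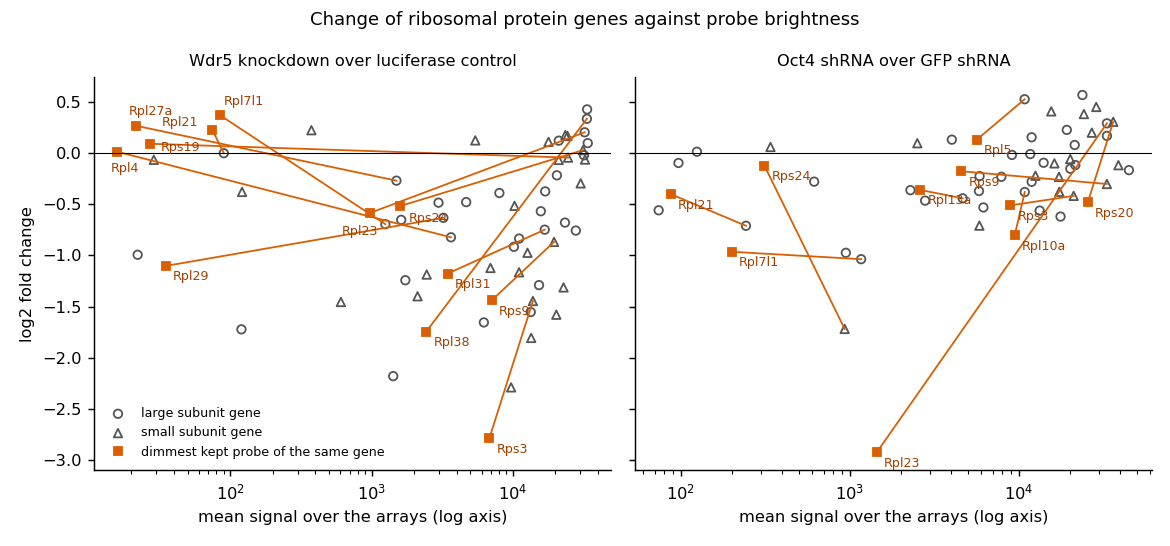
Log2 fold change (y axis) against mean signal over the arrays (x axis, log scale) for 55 and 49 tested ribosomal protein genes, in the Wdr5 comparison (left) and the Oct4 comparison (right), with circles for the large and triangles for the small subunit. Lines join a gene to its dimmest kept probe (squares), which lies lower than the brightest probe in 7 of 12 genes on the left and 5 of 10 on the right.

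Other genes of translation moved in both directions in the Wdr5 knockdown. Of 17 tested translation factors and companions whose messenger RNAs mostly share the 5′ TOP start or act with the ribosome, 9 fell and 4 rose, with a median of -0.25. Eef2, the translocation factor of elongation, had signals of 296.5, 225 and 237 in the knockdown, against 2569.9 and 3433 in the control, a log2 fold change of -3.25 ± 0.11 (SE, limma, adjusted p = 1.49e-05). Eif4b, a cofactor of the initiation helicase, fell as well (-2.49, adjusted p = 1.49e-05 by limma), and so did Eef1b2 (-0.83), an exchange factor of elongation, and Eif4ebp1 (-0.78), an mTOR-controlled repressor of initiation. Rack1, a scaffold protein of the small subunit whose symbol lies outside the rule, fell (-0.82, adjusted p = 0.00107 by limma). Of 19 tested genes of ribosome biogenesis, 10 rose and 6 fell, with a median of 0.32. As background to this list and to the translation list, 30.5% of all genes tested were lower and 38.2% higher. Pes1 (2.02), a factor of large subunit maturation, rose, and Nip7 (-1.63), Nop56 (-1.27) and Nhp2 (-1.17) fell. A probe under the older symbol Arbp, which names Rplp0, the base of the ribosomal stalk, had signals of 1207, 1145 and 1081 in the knockdown and 1208 and 1363.5 in the control, and its log2 fold change was 0.02 ± 0.07 (SE, limma, adjusted p = 0.816).

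Markers of cell identity moved alongside. All 10 pluripotency genes tested fell in the Wdr5 knockdown, with summed signals of 22094 to 24530.1 on the knockdown arrays and 54685 to 60891 on the luciferase arrays. Of 7 tested markers of the feeder fibroblasts, 5 rose and 1 fell, with summed signals of 2840.4 to 3371 in the knockdown and 1250.5 to 1447 in the control; Col1a2, Lum and Postn were not detected on enough arrays. Of 5 trophectoderm markers 4 rose and none fell. As background to these lists, 30.5% of all genes tested were lower and 38.2% higher. The part of the cell mixture in the fall of the ribosomal protein genes was not tested. In bulk RNA of this kind, fewer cells of a type and less RNA per cell cannot be told apart.

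After Oct4 knockdown, 11 of the 51 tested ribosomal protein genes fell, 1 rose and 39 did not pass the test. Over all 9278 genes tested 42.4% were called, 18.1% lower and 24.3% higher, against 23.5% of the ribosomal protein genes called in either direction. The share of the ribosomal protein genes that fell was 21.6%, near the background. On the authors' deposited log2 values the same test called more, 10 large and 8 small subunit genes lower and 6 of each higher, with 43.9% of all genes called. The median log2 fold change was -0.20 over 32 large subunit genes (8 fell, 1 rose, 23 did not pass) and -0.12 over 19 small subunit genes (3 fell, none rose, 16 did not pass), with -0.02 over all genes. A fall of at least 2-fold was seen in 2 of the 51 (3.92%), Rps24 and Rpl7l1, against 7.36% of all genes. Normalized values did not overlap between the groups for 40 genes (78.4%), against 72.5% of all genes, and 29 of these 40 were lower with the Oct4 shRNA. Here too, the direction of non-overlap was not counted over all genes. Deposited signals of all 51 were lower on both Oct4 shRNA arrays than on either GFP shRNA array, with a median ratio of 0.299. The Oct4 shRNA arrays were dimmer as a whole, with mean signals over all probes of 110 and 111, against 344 and 278. The share over all genes was not counted, so these signals show nothing particular to the ribosomal protein genes. Member probes made up 8.45 and 8.77% of the summed signal with the Oct4 shRNA, against 9.08 and 9.22% with the GFP shRNA. Leaving out Oct4 shRNA replicate 1 left 1 of the 12 calls, Rps24, and leaving out replicate 2 left 2, Rps24 and Rpl7l1. Each of these fits has 1 Oct4 shRNA array, which is assumed to vary as the GFP shRNA arrays do.

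**Figure D4:**
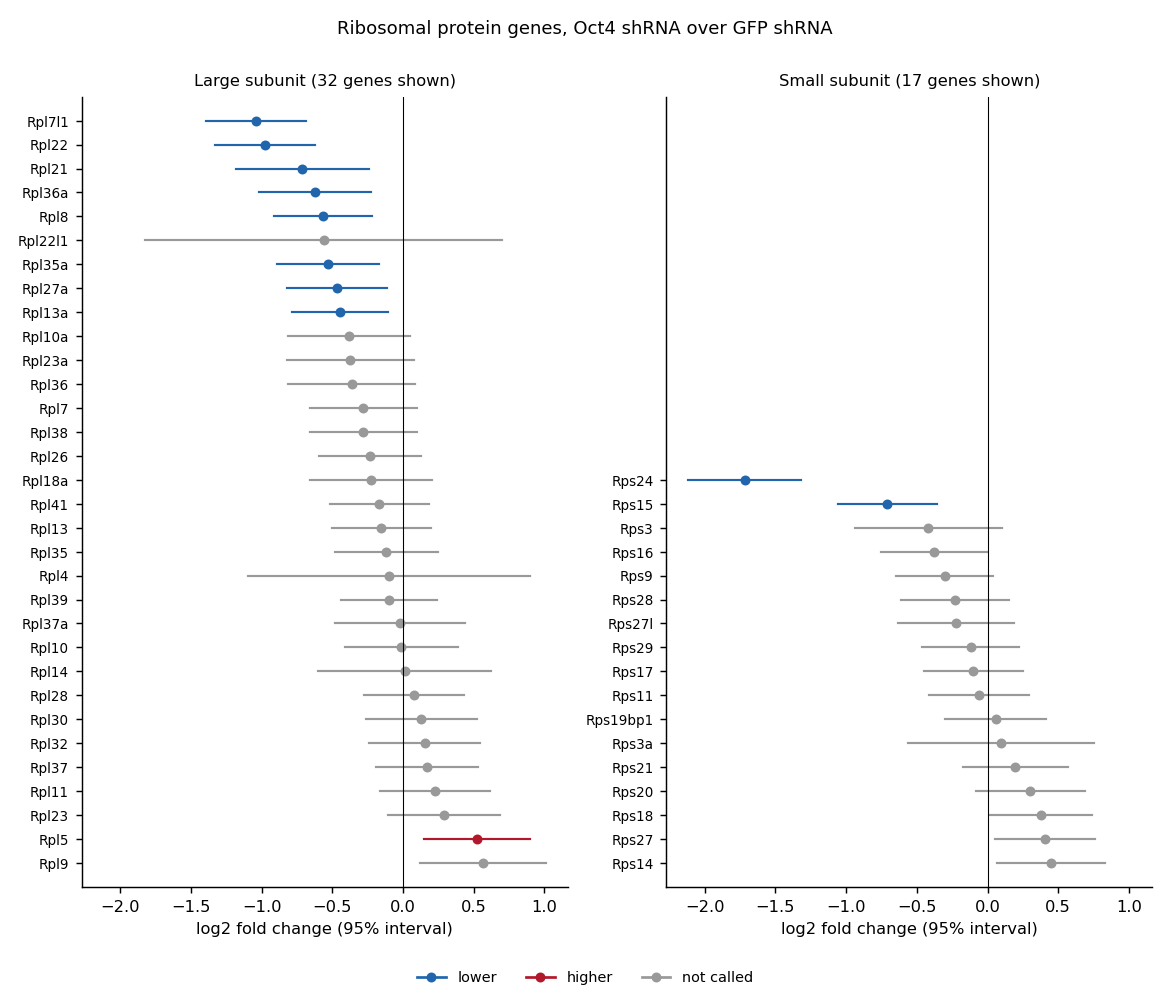
Log2 fold change (x axis, Oct4 shRNA over GFP shRNA) of 49 tested ribosomal protein genes (y axis), with points for estimates and lines for 95% intervals from limma, large subunit on the left and small subunit on the right. The 10 blue genes shown passed the test as lower, Rpl5 in red as higher, and the other 38 in grey did not pass.

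Rps24, another gene mutated in Diamond-Blackfan anaemia, fell most after Oct4 knockdown. Its signals were 164 and 174 on the Oct4 shRNA arrays, against 2057 and 1337 on the GFP shRNA arrays, and its normalized log2 values 8.36 and 8.48, against 10.26 and 10.01. The log2 fold change was -1.72 ± 0.16 (SE, limma, adjusted p = 0.00154), or 3.29-fold lower. A dimmer probe of Rps24 had signals of 167 and 136.5 with the Oct4 shRNA and 485.5 and 463 with the GFP shRNA, and its log2 fold change of -0.13 did not pass (limma, adjusted p = 0.621 over probes). The fall of Rps24 therefore rests on 1 of its 2 kept probes. Rps15 had normalized log2 values of 12.03 and 11.95 with the Oct4 shRNA, against 12.74 and 12.66 with the GFP shRNA, a log2 fold change of -0.71 ± 0.14 (SE, limma, adjusted p = 0.0118). Its values did not overlap between the groups. Rps14 had the highest values of the small subunit relative to its control, 15.06 and 15.10 with the Oct4 shRNA and 14.52 and 14.74 with the GFP shRNA, and Rps27 had 14.19 and 14.26 with the Oct4 shRNA and 13.88 and 13.76 with the GFP shRNA. Rps18 had 14.74 and 14.89 with the Oct4 shRNA and 14.46 and 14.42 with the GFP shRNA. All 3 were higher with the Oct4 shRNA on both arrays, and by limma none of Rps14 (0.45, adjusted p = 0.0626), Rps27 (0.41, adjusted p = 0.0683) and Rps18 (0.38, adjusted p = 0.0851) passed.

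In the large subunit, Rpl7l1 and Rpl22 fell most. Rpl7l1 had normalized log2 values of 9.31 and 9.42 with the Oct4 shRNA, against 10.37 and 10.44 with the GFP shRNA, a log2 fold change of -1.04 ± 0.14 (SE, limma, adjusted p = 0.00402). Its other 2 kept probes fell as well, with -0.64 and -0.96. Rpl22, an RNA-binding protein needed for T cell development in mice, had values of 9.10 and 9.15 with the Oct4 shRNA, against 10.04 and 10.16 with the GFP shRNA, a log2 fold change of -0.97 ± 0.14 (SE, limma, adjusted p = 0.00471). Rpl21 (-0.71), Rpl36a (-0.62), Rpl8 (-0.56), Rpl35a (-0.53), Rpl27a (-0.47) and Rpl13a (-0.44) also fell. Rpl21 was dim, with signals of 93.8 and 73.6 with the Oct4 shRNA and 409 and 396 with the GFP shRNA. Rpl9 had the highest log2 fold change, 0.57 ± 0.18 (SE, limma, adjusted p = 0.0506), and missed the threshold, with normalized log2 values of 14.92 and 14.91 with the Oct4 shRNA and 14.16 and 14.54 with the GFP shRNA. Its 2 arrays of the GFP shRNA group lay farther apart than those of the Oct4 shRNA group. Rpl23 had values of 15.12 and 15.19 with the Oct4 shRNA and 14.74 and 15.00 with the GFP shRNA and did not pass (0.29). Its other kept probe had signals of 391 and 21.6 with the Oct4 shRNA and 3765 and 1608 with the GFP shRNA. That probe was detected on 1 Oct4 shRNA array, and its log2 fold change of -2.92 did not pass (limma, adjusted p = 0.0879 over probes). Rpl10a had -0.38 on its brighter probe, which did not pass, and -0.80 on the other, which fell (limma, adjusted p = 0.011 over probes). Rpl38, represented here by a dim probe with signals of 278.8 and 267 with the Oct4 shRNA and 1019 and 899 with the GFP shRNA, did not pass (-0.28).

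Rpl5 and Rpl11 form a particle with 5S rRNA and, when free of the ribosome, bind Mdm2, the ligase that degrades p53. Neither was tested in the Wdr5 comparison. Rpl5 rose after Oct4 knockdown, with normalized log2 values of 13.68 and 13.88 with the Oct4 shRNA, against 13.29 and 13.22 with the GFP shRNA, and a log2 fold change of 0.52 ± 0.15 (SE, limma, adjusted p = 0.0385). Its second probe gave 0.13 and did not pass (limma, adjusted p = 0.598 over probes), and the call was lost under 7 of the alternative settings tried. Rpl11 had values of 14.50 and 14.34 with the Oct4 shRNA, against 14.10 and 14.29 with the GFP shRNA, and its log2 fold change of 0.22 had an interval of -0.16 to 0.61.

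The paralogs differed here in what could be measured. Rpl22 fell, while Rpl22l1 was detected on 1 array of each group and its log2 fold change of -0.56 had an interval of -1.82 to 0.70. Rpl7l1 fell, while Rpl7 had -0.28 with an interval of -0.66 to 0.10. Rps27 (0.41) and Rps27l (-0.22) had opposite signs and neither passed. Rpl39 (-0.10, interval -0.44 to 0.24) and Rpl10 (-0.01, interval -0.41 to 0.39) lay near 0. Differences within these pairs were not tested. Rplp0, Rplp2, Rpl17, Rpl18, Rpl29, Rpl36al, Rpl3l, Rps13, Rps15a, Rps19 and Rpsa were on the platform and detected on too few arrays to be tested. The Arbp probe for Rplp0 was detected and fell, with signals of 288 and 281 with the Oct4 shRNA, against 1454 and 1193 with the GFP shRNA, and a log2 fold change of -0.65 ± 0.14 (SE, limma, adjusted p = 0.0156).

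Outside the symbol rule, Fau, which encodes a fusion with Rps30, gave 0.27 (adjusted p = 0.175 by limma). A probe under the clone name 1100001I22Rik, which RefSeq names Rpl34, gave -0.39 (adjusted p = 0.0772 by limma). Of 16 tested translation genes 4 fell and none rose, with a median of -0.05. Of 19 tested genes of ribosome biogenesis 12 fell and none rose, with a median of -0.62. As background to the lists given here, 18.1% of all genes tested were lower and 24.3% higher. Nle1 (-1.40), Ncl (-1.31), Rpf2 (-1.24) and Nop56 (-1.21) had the largest falls of that list. Of 7 tested pluripotency genes 6 fell, and all 4 tested trophectoderm markers rose, with summed signals of 12378 to 13747 with the Oct4 shRNA, against 862 to 1127 with the GFP shRNA. The feeder fibroblast markers had summed signals of 93.6 to 97.2 with the Oct4 shRNA, against 194 to 254 with the GFP shRNA, and neither of the 2 tested passed. The part of these cell states in the values of the ribosomal protein genes was not tested.

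Both comparisons tested 30 ribosomal protein genes in common. Of these, 7 (23.3%) fell in both, none rose in both and none was called in opposite directions, against 10.1%, 15.3% and 8.43% of all 6168 shared genes. Among the 7 were Rpl7l1, Rpl13a, Rpl22, Rpl27a, Rpl36a and Rps15. Rpl22 had log2 fold changes of -1.24 after Wdr5 knockdown and -0.97 after Oct4 knockdown, and Rpl13a -0.49 and -0.44. Across the 30 genes the 2 sets of log2 fold changes correlated weakly (Pearson r = 0.17, Spearman rho = 0.26), and over all 6168 shared genes Pearson's r was 0.39. The comparisons share no arrays, but they used separate platforms, probes and cell lines. Wdr5 and Pou5f1 themselves each fell in both comparisons.

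A joint limma fit tested whether the change differed between the comparisons. The fit assumes that a gene varies alike on both platforms. The median SE was 0.08 for the Wdr5 comparison and 0.15 for the Oct4 comparison, so the SE of a difference may be too small. For Rpl39 it was 0.12, below the 0.14 of the Oct4 comparison alone. The change differed for 15 of the 30 genes, against 56.7% of all 6168 shared genes, so the share was near the background. Of these, 10 were lower in the Wdr5 comparison and 5 higher. Rps3a differed by -1.55 ± 0.29 on the log2 scale (SE, limma, adjusted p = 0.002), with -1.45 after Wdr5 knockdown and 0.09 after Oct4 knockdown. Rpl9 differed by -1.32 ± 0.18 (SE, limma, adjusted p = 0.000374), with -0.76 after Wdr5 knockdown and 0.57 after Oct4 knockdown. At the other end, Rps24 differed by 1.74 ± 0.15 (SE, limma, adjusted p = 3.42e-05), with 0.03 after Wdr5 knockdown and -1.72 after Oct4 knockdown. The probe behind Rps24 had a mean signal of 31347 on the Wdr5 platform and 933 on the Oct4 platform. The 2 values thus come from probes of unlike brightness, which are annotated to different Rps24 transcripts. On the Wdr5 platform, the probe annotated to the same transcript as the Oct4 probe fell (-0.52, limma, adjusted p = 0.0106 over probes). Rpl38, Rpl41 and Rpl21 were also higher in the Wdr5 comparison. For Rpl38 the probes differed in brightness too, with mean signals of 33404 on the Wdr5 platform and 616 on the Oct4 platform. The dimmer Rpl38 probe of the Wdr5 platform gave -1.74, against -0.28 after Oct4 knockdown. The direction of the Rpl38 difference thus rests on the choice of probe. The median difference over the 30 genes was -0.27, against -0.01 over all shared genes.

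**Figure D5:**
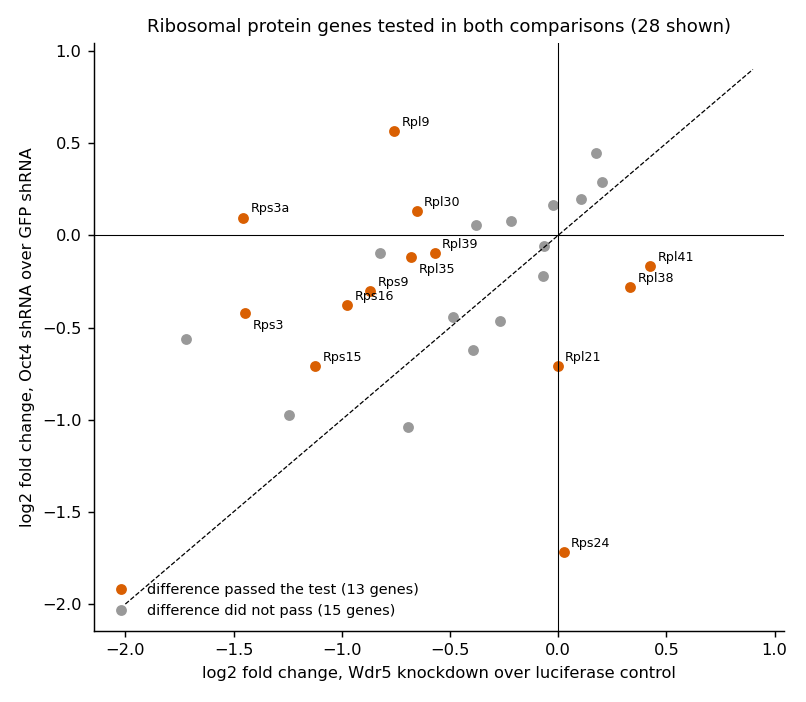
Log2 fold change after Wdr5 knockdown (x axis) against that after Oct4 knockdown (y axis) for 28 ribosomal protein genes tested in both comparisons, with equal values on the dashed line. The 13 orange genes, which are named, passed the test of the difference, and the 15 grey genes did not.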

How the data were processed

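Probe intensities were deposited on a linear scale, background-subtracted and, per the file headers, without normalization. Each came with a deposited detection score, a fraction near 1 for bright probes. Further deposited tables hold normalized log2 values and, per the file headers, log2 fold changes and p-values of each comparison. The submitters' processing notes list limma without a version; how these tables were normalized, which scanner was used and which arrays shared a slide is not stated in those sources.

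The analysis used R 4.3.3 and limma 3.58.1. Background correction followed limma's nec function, with detection scores in place of control probes, an offset of 16 was added, and the arrays of each comparison were quantile-normalized and log2-transformed. Quantile normalization removes any change in total messenger RNA, and the offset pulls fold changes of dim probes towards 0. Probes whose detection score passed 0.95 on 2 or more arrays were kept, 13529 of 25697 on the Wdr5 platform and 11324 of 46643 on the Oct4 platform, and a gene took its kept probe of highest mean signal. Symbols came from accessions matched to RefSeq GRCm38.p6 (24114 and 25500 probes on these platforms), from RefSeq synonyms (301 and 4099 probes) or from the tables. Groups were compared with lmFit and eBayes, set by set and two-sided, with Benjamini-Hochberg adjustment over all genes, and calls were made at 0.05. Probe-level adjusted p-values run over all kept probes. A joint fit of 4 group means over the 6168 shared genes, with a common variance per gene for both platforms, tested the difference between the comparisons. The code was tested on simulated data. The number of arrays limits the precision, with a median SE of 0.08 over the tested ribosomal protein genes for the Wdr5 comparison and 0.15 for the Oct4 comparison.

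The members, gene lists and tests were chosen with earlier results of these data known. By the rule for named genes, values on every array were due for the 3 lowest and 3 highest of each subunit and comparison, stalk, 5S-binding and paralogous genes, other genes of known special roles and genes whose probes were called in opposite directions, as for the target of each shRNA; to limit length, some of these genes are given by their log2 fold change alone. The values of some genes are not reported here, in text or figures, though the counts include them. Promoters came from RefSeq GRCm38.p6. The alternatives were other background corrections, normalizations, probe choices, variance models and values, a replicate block, and leaving out each array. Arrays of a group correlated at 0.995 to 0.996 for the Wdr5 comparison and 0.978 to 0.989 for the Oct4 comparison. Same-numbered arrays did not deviate together (correlations of -0.03, -0.01 and -0.36), so the numbers were not treated as pairs. In the Oct4 comparison, arrays of unlike number correlated at 0.36. With 2 arrays a group, this is the same value with its sign turned. Whether these arrays shared a source of variation was not tested.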

Additional observations from a re-analysis of the deposited data

Results flagged for a closer look

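The log2 fold change of 15 ribosomal protein genes differed between the Wdr5 and the Oct4 comparison by a joint limma fit over all shared genes (adjusted p under 0.05), and 13 of them are given here. Lower after Wdr5 knockdown than after Oct4 knockdown, as the difference of the 2 log2 fold changes with its SE, were Rps3a (-1.55 ± 0.29), Rpl9 (-1.32 ± 0.18), Rps3 (-1.03 ± 0.21) and Rpl30 (-0.78 ± 0.16). Rps16 (-0.60 ± 0.13), Rps9 (-0.57 ± 0.13), Rpl35 (-0.56 ± 0.13), Rpl39 (-0.47 ± 0.12) and Rps15 (-0.41 ± 0.13) were lower too. Higher after Wdr5 knockdown were Rpl41 (0.59 ± 0.12), Rpl38 (0.61 ± 0.13), Rpl21 (0.71 ± 0.24) and Rps24 (1.74 ± 0.15). For Rpl38 the direction rests on the choice of probe, as its dimmer Wdr5 probe gave -1.74, against -0.28 after Oct4 knockdown. The Rps24 probes are annotated to different transcripts. Platform, probes and cell line differ between the comparisons and cannot be told apart from the knockdown. The joint fit assumes that a gene varies alike on both platforms, so the SEs of these differences may be too small. Groups of 2 or 3 arrays were too small for a test of single outlying arrays.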

How the results depend on the processing

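The fall in the Wdr5 knockdown held in number under most settings. Leaving out each array in turn gave 21 to 22 large subunit genes lower and 2 higher, and 16 to 17 small subunit genes lower and 0 to 1 higher; Rps15a was lost without knockdown replicate 2 or 3 or without either luciferase array, where the lone luciferase array is assumed to vary as the knockdown arrays do. The small subunit genes higher were 2 with scaling to a common median, 0 without the detection filter, 3 with a trended variance and 0 with the replicate block, and the large subunit genes higher were 1 with the mean of kept probes. With probes under a signal of 10000 on every array, a setting chosen after seeing the data, 14 large and 5 small subunit genes were lower and 0 large ones higher, with fewer genes tested. That setting gave -0.58 for Rpl23 and -1.74 for Rpl38, and the mean of kept probes gave -0.71 for Rpl38, all opposite in sign to the brightest probe. The authors' deposited table called 5 large and 3 small subunit genes higher.

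The Oct4 counts moved more. Leaving out each array gave 0 to 8 large subunit genes lower and 0 to 2 higher, and 1 to 4 small subunit genes lower and 0 to 1 higher; without Oct4 shRNA replicate 1 the large subunit had 0 lower. A lone array of either group is assumed there to vary as the other group does. Scaling to a common median gave 5 large subunit genes lower and 0 higher and 1 small subunit gene higher, with medians of -0.23 and -0.22 beside 0.09 over all genes. The replicate block gave 3 large subunit genes lower and 0 higher, and the crossed replicate block, added after seeing the data, 2 large and 1 small higher. No detection filter gave 1 small subunit gene higher, and a trended variance 2 large and 3 small higher. Probes under 10000 gave 4 large and 1 small lower and 0 large higher. The authors' deposited log2 values gave 6 large and 6 small subunit genes higher and 10 large and 8 small lower, while 4 large and 5 small higher and 5 small lower were called in the authors' deposited table. The cause was not tested. The difference between the comparisons gave 9 to 12 genes lower and 4 to 5 higher without single arrays. Dim probes and 2 arrays a group limit the Oct4 values. The authors' deposited log2 values of the Wdr5 set were not run, because their probe identifiers could not be matched.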
